A study of Mus musculus with 20 samples.

Results

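The genes of the megalin and cubilin uptake route were examined in mouse kidneys by RNA sequencing. They were chosen by name: Lrp2, Cubn, Amn, Dab2, Clcn5, Fcgrt and Hnf4a, which are 7 of the 26608 genes named in a table of 12 kidneys and 7 of the 30809 genes in a separate table of 8 kidneys. All 7 passed the filter on low counts in both tables. Every animal was an aged mouse that had received a bone marrow transplant. In the 12-kidney table the transplant gave a Control blood system (6 kidneys, animals 3, 11, 12, 13, 16 and 17) or one with loss of the Y chromosome, LOY (6 kidneys, animals 5, 8, 9, 10, 14 and 18). In the 8-kidney table all animals carried LOY blood and were given a control compound (animals 6, 8, 9 and 10) or ABT-263 (animals 15, 16, 17 and 18), a BCL-2 family inhibitor used to kill senescent cells. No source used here gives the strain, sex, age, dose, time after transplant or the way the loss was made. LOY lies in the transplanted blood system, whereas the tubule cells that express most of these genes belong to the recipient.

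The proximal tubule takes back the proteins that pass the glomerular filter. Megalin (Lrp2) and cubilin (Cubn) are large receptors on its brush border that bind albumin, vitamin-binding proteins and hormones. Cubilin has no membrane span of its own and reaches the surface only in complex with amnionless (Amn). The adaptor Dab2 couples the receptors to clathrin, and the chloride-proton exchanger ClC-5 (Clcn5) supports acidification of the endosome; its loss causes Dent disease, with low molecular weight protein in the urine. The neonatal Fc receptor (Fcgrt) pairs with beta-2-microglobulin and returns albumin and immunoglobulin G from the endosome instead of the lysosome. Hnf4a is a nuclear receptor that keeps proximal tubule cells differentiated.

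Total gene counts were 13332563 to 19386408 per kidney in the LOY table and 14587809 to 20791633 in the ABT-263 table. LOY animal 8 stood apart, with a count in 16639 genes against 17829 to 18544 in the other 11 kidneys of its table. In the ABT-263 table, ABT-263 animal 16 had a summed level of 12 tubular injury markers of 21919.8 CPM (counts scaled to a common library size), against 1966 to 4323 in the other 7 kidneys. All 28 fixed proximal tubule markers had counts, as did all markers of the other cell type lists. They summed to 44864 to 72345 CPM in the LOY table and 24965 to 42076 CPM in the ABT-263 table. Kap alone averaged 19847 CPM in Control and 27022 CPM in LOY kidneys, so the sum is a poor measure of proximal tubule content. LOY animal 8 had the highest sum, but the median log2 deviation of the markers from their own means was -0.53 there, lower only in LOY animal 10 (-0.84). In whole tissue, fewer proximal tubule cells and less RNA per cell cannot be told apart.

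In GENCODE M21 (GRCm38) Lrp2 lies on chromosome 2 at 69424340 to 69586065 and Cubn on chromosome 2 at 13276338 to 13491813, with 80 and 66 separate exon blocks. Amn is short, at chromosome 12, 111271095 to 111276426, with 11 blocks. Dab2 lies on chromosome 15 at 6299788 to 6440712, Clcn5 on chromosome X at 7153810 to 7319358, Fcgrt on chromosome 7 at 45092990 to 45103851 and Hnf4a on chromosome 2 at 163506808 to 163572910. Exons of Cubn share 368 bases with Gm13270 and those of Dab2 share 211 bases with the pseudogene Gm18888, both on the opposite strand, and no source used here says whether strand was used in counting. The other 5 members share no exon bases with another gene.

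The upstream sequences of Lrp2, Cubn and Amn are shown because these genes encode the receptors and the membrane partner of cubilin, on which the comparisons below turn. The sequences are RefSeq's windows for GRCm38.p6, on the strand of the gene and 5′ to 3′, from 250 bases before the start site up to any annotated exon. Capitals mark the GC box GGGCGG, searched on both strands.
Lrp2 (chr2:69586066-69586279, minus strand): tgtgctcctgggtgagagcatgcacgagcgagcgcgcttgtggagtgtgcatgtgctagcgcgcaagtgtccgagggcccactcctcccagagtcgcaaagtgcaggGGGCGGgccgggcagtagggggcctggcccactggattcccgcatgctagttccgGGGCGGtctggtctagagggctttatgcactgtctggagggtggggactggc
Cubn (chr2:13491877-13492126, minus strand): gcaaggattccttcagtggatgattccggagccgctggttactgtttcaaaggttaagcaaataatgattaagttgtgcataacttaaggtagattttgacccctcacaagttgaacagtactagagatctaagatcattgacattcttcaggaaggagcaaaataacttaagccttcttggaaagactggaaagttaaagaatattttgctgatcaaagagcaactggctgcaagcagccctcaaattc
Amn (chr12:111270846-111271094, plus strand): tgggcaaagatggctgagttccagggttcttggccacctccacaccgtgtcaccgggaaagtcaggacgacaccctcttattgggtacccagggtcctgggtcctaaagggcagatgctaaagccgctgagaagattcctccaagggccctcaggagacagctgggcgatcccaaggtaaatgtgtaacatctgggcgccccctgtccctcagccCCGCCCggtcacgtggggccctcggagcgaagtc
Over the whole 250 bases the share of G and C was 66.4% for Lrp2, 61.2% for Amn and 39.6% for Cubn, against a median of 52.4% over 32851 windows of the same length. The GC box was present in the windows of Lrp2 and Amn, as in 32.7% of all windows, and these letters were not in the Cubn window. The letters CAAAGTCCA, a site of HNF4 proteins, occurred in 0.384% of all windows, and CAAAGGTCA, a direct repeat core, in 0.426%. Neither was in any of the 10 windows of the 7 members.

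Levels per kilobase of exon were compared within each table. In the LOY table, over all 12 kidneys, Hnf4a stood at 154 ± 29.6 CPM per kilobase, Amn at 133 ± 24.9, Fcgrt at 125 ± 14.5, Lrp2 at 93.2 ± 32.1, Dab2 at 61.5 ± 11.5 and Cubn at 31.8 ± 8.57 (SD, n = 12). Clcn5 was far below them at 1.60 ± 0.711. Each neighbour in this order overlapped the next over the 12 kidneys, apart from Clcn5, which lay below every value of Cubn. In the ABT-263 table Hnf4a (168 ± 18.3 CPM per kilobase, n = 8) again led, followed by Lrp2 (127 ± 24.1), Fcgrt (83.6 ± 4.98), Dab2 (64.6 ± 9.01), Amn (60.3 ± 6.23), Cubn (30.3 ± 3.30) and Clcn5 (12.9 ± 2.08). The ranges of Hnf4a and Lrp2 overlapped, and the lowest Lrp2 value (91.12) lay just above the highest of Fcgrt (91.08). Dab2 overlapped both Fcgrt and Amn, but Fcgrt lay above every value of Amn. Cubn lay below every value of Amn and Clcn5 below every value of Cubn. The tables were processed separately by the authors and name different gene sets, and the lengths come from GENCODE. Levels were therefore not compared between the tables, with 1 caution for Clcn5. Its mean was 18.3 CPM in the LOY table and 148 CPM in the ABT-263 table, and whether both counted the whole gene was not tested.

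Between LOY and Control kidneys, the question was how these tubular genes differ with the blood system the animal carried. The receptors Lrp2 and Cubn and the exchanger Clcn5 had the lowest fold changes, with means in LOY kidneys at 0.627, 0.689 and 0.586 of the Control mean. Their partner Amn and the recycling receptor Fcgrt stood at 0.996 and 0.899. Lrp2, Cubn and Clcn5 also have the longest exon totals of the members (16701, 14935 and 11452 bases). Fcgrt and Amn have the shortest (2102 and 1843 bases), and Dab2 and Hnf4a (7342 and 4828 bases) lay between in length and in fold change. The part of transcript length or RNA quality in these values was not tested. All 7 members had negative log2 fold changes (median -0.30, against 0.02 over all 14978 genes tested, of which 47.7% were negative), but the sign of Amn was not stable across settings. By edgeR's quasi-likelihood test with Benjamini-Hochberg adjustment over all genes, 0 of 7 members passed an adjusted p of 0.05, where 1.18% of all genes did (176 genes). That gene count was 607 without Control animal 3 and 0 without Control animal 16 or 17, while 0 members passed with any 1 kidney left out. At an unadjusted p under 0.05, 4 of 7 were lower and 0 higher, against 9.33% and 13.5% of all genes. Of the 28 proximal tubule markers 14 were lower and 1 higher by that edgeR p. Of 10 distal tubule and collecting duct markers 5 were lower and 1 higher, and of 6 thick ascending limb markers 1 and 1. DESeq2 called 1 of 7 members (5.78% of all genes) and limma voom with quality weights 1 of 7 (7.09% of all genes), and Cubn was the gene in both cases. In 0 of 7 members did all LOY values lie below all Control values, as they did in 0.461% of all genes.

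Lrp2, which encodes megalin, was measured at 1446, 1766, 1855, 1856, 2245 and 2316 CPM in the Control kidneys. In the LOY kidneys it was measured at 536 (animal 8), 673 (animal 10), 1377, 1451, 1568 and 1599 CPM. LOY animals 8 and 10 lay far below the rest, and the other 4 LOY kidneys overlapped the Control kidneys only through Control animal 3, the lowest of that group. The means were 1914 ± 322 and 1200.5 ± 471 CPM (SD, n = 6 per group), and the log2 fold change was -0.67 ± 0.25 (SE; 95% interval -1.21 to -0.14; edgeR adjusted p = 0.164). Without LOY animals 8 and 10 it was -0.37 (edgeR adjusted p = 0.240).

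Cubn, which encodes cubilin, had the smallest p of the members. It stood at 408 (animal 3), 548, 558, 569, 587 and 704 CPM in Control kidneys and at 253 (animal 8), 291 (animal 10), 406, 442, 450.2 and 483 CPM in LOY kidneys. As for Lrp2, all 6 LOY kidneys were below the Control mean, and Control animal 3 alone prevented a full separation. This gave a log2 fold change of -0.54 ± 0.17 (95% interval -0.90 to -0.17; edgeR adjusted p = 0.122). The adjusted p was 0.0355 by DESeq2 and 0.0381 by limma voom. Over all other settings the edgeR adjusted p reached 0.687, with animal number above 10 as a term. Without LOY animals 8 and 10 the log2 fold change was -0.35 (edgeR adjusted p = 0.238).

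Amn, the membrane anchor of cubilin, stood at 218, 227, 231, 245, 249 and 299.5 CPM in Control kidneys, the highest being animal 3. In LOY kidneys it stood at 156 (animal 10), 203, 218, 283, 283 and 320.4 CPM (animal 8). LOY animal 8 thus had the lowest Cubn and the highest Amn of the 12 kidneys, while LOY animal 10 was low in both. The group means were 245 ± 29.1 and 244 ± 61.6 CPM, with a log2 fold change of -0.01 ± 0.16 (95% interval -0.34 to 0.33; edgeR adjusted p = 0.985). Changes of either sign within that interval are compatible with these kidneys, and the power to detect them was not computed.

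Dab2, the clathrin adaptor of both receptors, stood at 369, 461, 503, 515, 564 and 584 CPM in Control and 312, 337, 413, 446, 453 and 464 CPM in LOY kidneys. The lowest Control kidney was again animal 3 and the lowest LOY kidneys were again animals 10 and 8. Its log2 fold change was -0.30 ± 0.14 (edgeR adjusted p = 0.210). Macrophages also express Dab2, and 15 macrophage markers summed to 236 to 409.8 CPM in Control and 453 to 689 CPM in LOY kidneys; their part in the Dab2 value was not tested.

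Clcn5 had the lowest counts of the members in the LOY table, 82 to 509 per kidney. Whether that table counted the whole gene was not tested, so its values may cover only part of it. It was measured at 12.0 (animal 3), 20.5, 22.0, 24.9, 28.2 and 30.9 CPM in Control kidneys and at 6.07 (animal 8), 8.78 (animal 10), 10.6, 12.6, 18.4 and 24.7 CPM (animal 18) in LOY kidneys. LOY animals 5, 14 and 18 lay within the Control range, and the other 3 lay below it. The log2 fold change was -0.77 ± 0.30 (95% interval -1.40 to -0.13; edgeR adjusted p = 0.171). It ranged from -1.04 to -0.22 over the other settings and was smallest among the animals numbered above 10.

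Fcgrt, the neonatal Fc receptor, varied least. It stood at 262 to 291 CPM in Control kidneys (median 279) and at 242 to 284 CPM in 5 of the LOY kidneys, with LOY animal 10 apart at 176 CPM. Its log2 fold change was -0.15 ± 0.11 (edgeR adjusted p = 0.401), and -0.0864 without LOY animal 10. Its light chain B2m, which also serves MHC class I molecules, rose from 321 ± 59.8 to 599 ± 136 CPM. The log2 fold change of B2m was 0.90 ± 0.16 (edgeR adjusted p = 0.0250), and all 6 LOY kidneys (464 to 784 CPM) lay above all Control kidneys (259 to 432 CPM), as in 1.56% of all genes. Without Control animal 16 or 17 no gene of the table passed the edgeR threshold, B2m included. The means of the heavy and light chains of this receptor therefore differed in opposite directions, and a difference between their changes was not tested.

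Hnf4a, the transcription factor, stood at 731, 746, 779, 787, 885 and 956 CPM in Control kidneys and at 396 (animal 10), 597 (animal 8), 659.7, 753, 789.5 and 815 CPM in LOY kidneys. The 3 highest LOY kidneys lay within the Control range. The log2 fold change was -0.28 ± 0.16 (edgeR adjusted p = 0.286), -0.19 without LOY animal 10 and -0.13 without LOY animals 8 and 10.

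**Figure D1:**
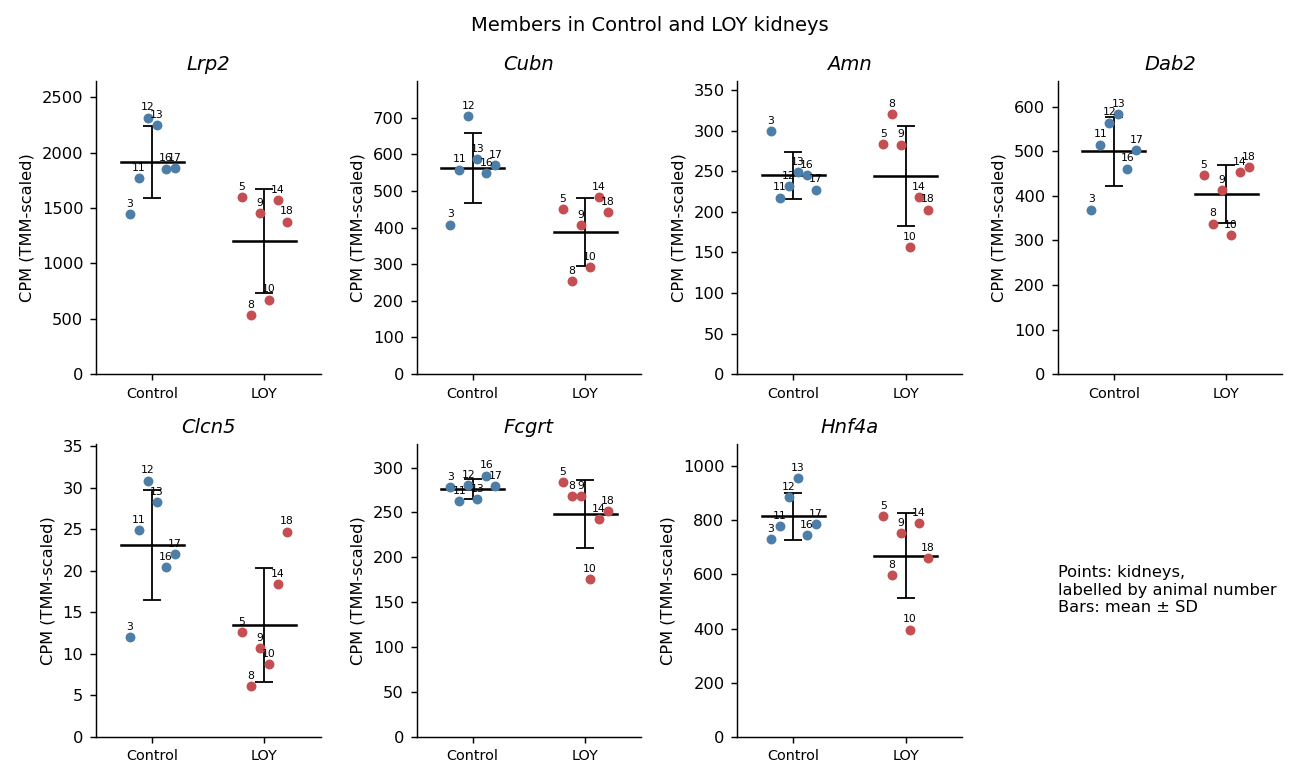
Level of each member in CPM (vertical axis, TMM-scaled, from 0) in 6 Control and 6 LOY kidneys. Points are kidneys labelled by animal number, and bars give the mean ± SD. LOY animals 8 and 10 are the lowest kidneys for Lrp2, Cubn, Clcn5, Dab2 and Hnf4a, whereas LOY animal 8 is the highest for Amn.

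Injury and macrophage markers differed among the kidneys low in the receptors. Animal 10 had the highest summed tubular injury markers of the LOY table (10282 CPM) and the highest macrophage markers (689 CPM). LOY animal 8, the lowest for Lrp2 and Cubn, had 4669 CPM of injury and 517 CPM of macrophage markers, within the range of the other LOY kidneys, and LOY animal 18 was second for injury markers (6913 CPM) with Lrp2 at 1377 CPM. Spp1 alone averaged 3940 CPM in LOY kidneys, so the injury sum rests largely on 1 gene. By the median log2 deviation of the markers, LOY animal 8 was at 0.69 for macrophage markers, second to LOY animal 10 (0.95). For injury markers it was at 0.60, below LOY animals 10 (1.37) and 18 (0.95). Control animal 3 had 3908 CPM of injury markers against 1909 to 2463 in the other Control kidneys, and 409.8 CPM of macrophage markers against 236 to 315. Of all genes tested 1.11% rose and 0.0601% fell. Of the 12 injury markers 7 rose and 0 fell (median log2 fold change 1.35), and of the 15 macrophage markers 7 rose and 0 fell (median 1.04); their part in the receptor values was not tested. In the endothelial, podocyte, thick ascending limb and distal or collecting duct lists 0 markers passed, with medians of 0.04, 0.23, -0.28 and -0.37. Animal number also went with the groups: 5 of 6 Control but 2 of 6 LOY animals were numbered above 10. With animal number above 10 as a term 0 of 14978 genes passed in edgeR, so the calls of these markers and of B2m were lost. In that fit the log2 fold change was -0.45 for Lrp2 (edgeR adjusted p = 0.749) and -0.31 for Cubn (edgeR adjusted p = 0.687). Among the 7 animals numbered above 10 alone, 5 Control and 2 LOY, it was -0.45 for Lrp2 (edgeR adjusted p = 0.0714) and -0.36 for Cubn (edgeR adjusted p = 0.0909).

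The ratio of 2 members within a kidney does not depend on library scaling, and 4 ratios were compared by exact two-sided permutation over all 924 splits. The 2 genes of a ratio differ in exon length. Lrp2 has 16701 bases against 4828 for Hnf4a and 7342 for Dab2, and Amn has 1843 against 14935 for Cubn. Of the 4 pairs, Lrp2 and Cubn are the closest in length. The part of transcript length in the ratios was not tested. P-values were adjusted over these 4 ratios alone, which were chosen with earlier results of these data known. The share of all gene pairs that would pass was not computed. The Lrp2 to Hnf4a count ratio was lower in LOY kidneys. On the log2 scale it was 0.98, 1.18, 1.23, 1.24, 1.31 and 1.39 in Control kidneys and -0.16 (animal 8), 0.77 (animal 10), 0.95, 0.97, 0.99 and 1.06 in LOY kidneys. The means were 1.22 ± 0.14 and 0.76 ± 0.46, a difference of -0.46 (exact p = 0.00649, adjusted p = 0.0173), and 4 LOY values lay below the lowest Control value. Without LOY animal 8 the difference was -0.28 (exact adjusted p = 0.0216), without LOY animals 8 and 10 it was -0.23 (exact adjusted p = 0.0571), and among the animals numbered above 10 it was -0.24 (exact adjusted p = 0.190).

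The Dab2 to Lrp2 ratio was higher in LOY kidneys, at a log2 mean of -1.47 ± 0.48 against -1.94 ± 0.09 in Control kidneys. The difference was 0.47 (exact permutation p = 0.00866, adjusted p = 0.0173), and 3 of 6 LOY kidneys (animals 8, 10 and 18) lay above every Control kidney. Without LOY animal 8 it was 0.31 (exact permutation adjusted p = 0.0216), without LOY animals 8 and 10 it was 0.18 (exact permutation adjusted p = 0.0571), and among the animals numbered above 10 it was 0.25 (exact permutation adjusted p = 0.190). Both ratio calls were also lost when Control animal 12, 13, 16 or 17 was left out (exact adjusted p 0.0606 to 0.0823). Each of these 2 ratios contains Lrp2, so they are not independent observations. The share of Dab2 RNA from macrophages was not tested.

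The Amn to Cubn ratio had a log2 mean of -1.19 ± 0.39 in Control and -0.67 ± 0.55 in LOY kidneys, a difference of 0.52 that did not pass (exact permutation p = 0.0779, adjusted p = 0.104). It ran from -1.61 to -0.45 in Control kidneys and from -1.15 to 0.34 in LOY kidneys. Control animal 3 (-0.45) stood above 5 of the LOY kidneys, and without it the difference was 0.67 (exact permutation adjusted p = 0.0216). The Lrp2 to Cubn ratio had means of 1.77 ± 0.10 and 1.55 ± 0.32, a difference of -0.22 (exact permutation adjusted p = 0.184). That difference came down to -0.02 without LOY animals 8 and 10 (1.08 and 1.21), while the other 4 LOY kidneys ran from 1.64 to 1.84 against 1.66 to 1.94 in Control kidneys.

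**Figure D2:**
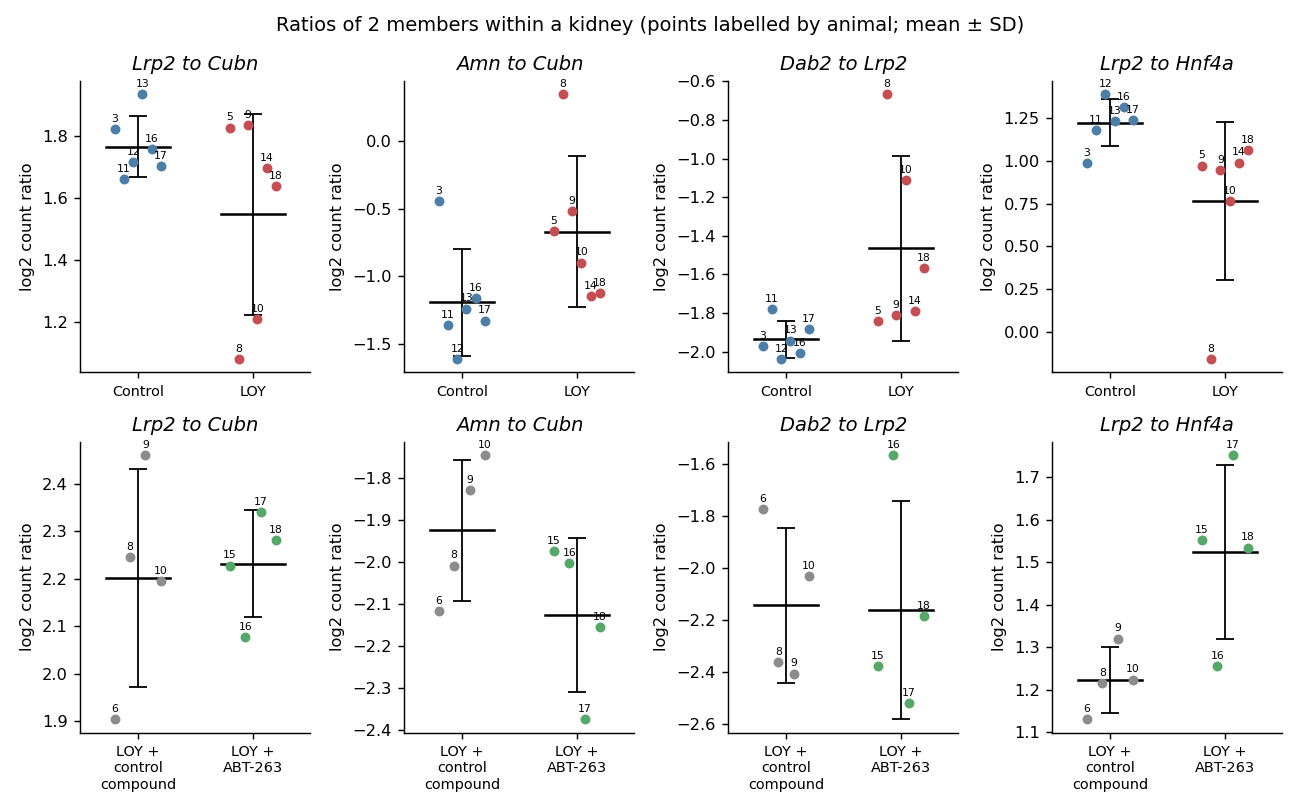
Log2 ratio of the counts of 2 members within each kidney (vertical axis) for the LOY table (upper row) and the ABT-263 table (lower row). Points are kidneys labelled by animal number, and bars give the mean ± SD. LOY animal 8 lies apart in the Lrp2 to Hnf4a ratio at -0.16.

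Set against the median deviation of the 28 proximal tubule markers in the same kidney, the members spread to either side. Lrp2 was at 0.04 to 0.36 in Control and at -0.90 to 0.05 in LOY kidneys on this log2 scale, a difference of means of -0.34. The difference was -0.42 for Clcn5 and -0.12 for Cubn, but 0.40 for Amn, 0.27 for Fcgrt, 0.13 for Dab2 and 0.12 for Hnf4a. By these means Lrp2 and Clcn5 were the lowest members in LOY kidneys and Amn the highest, relative to these markers. The members with negative differences, Lrp2, Clcn5 and Cubn, are those with the longest exon totals, and the part of length was not tested. The groups overlapped for Clcn5 (-0.40 to 0.50 in Control, -0.89 to 0.65 in LOY kidneys) and for Amn (-0.47 to 0.36 and -0.20 to 0.94). These values are given as a description, since 24 of the 28 markers themselves had negative log2 fold changes (median -0.40), with 0 past the threshold.

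For 11727 other genes whose mean reached 5 CPM, likeness to a member was measured as the root mean square difference of mean-centred log2 CPM over the 12 kidneys. Gas2 (0.108), Dpys (0.118) and Cmah (0.129) were nearest to Lrp2, whose own root mean square deviation was 0.613. Cldn12 (0.0622), Nnt (0.0761) and Ankib1 (0.0894) were nearest to Cubn, whose own was 0.407. Dpys, which encodes dihydropyrimidinase, stood at 39.7 ± 6.87 CPM in Control and 24.1 ± 9.33 CPM in LOY kidneys (log2 fold change -0.72 ± 0.24, edgeR adjusted p = 0.133). Cldn12, a claudin, stood at 100.3 ± 16.5 and 69.3 ± 17.8 CPM (-0.53 ± 0.17, edgeR adjusted p = 0.121). Within the members, Dab2 and Hnf4a were the nearest pair (0.169) and Amn and Clcn5 the farthest (0.828), while Lrp2 and Cubn were 0.244 apart.

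The rest of the route was described from 7 lists of its genes. In the LDL receptor family, to which megalin belongs, 0 of 10 genes passed in either direction and 8 were negative (median -0.21). Its smallest p belonged to the very low density lipoprotein receptor Vldlr (114 ± 17.3 to 81.9 ± 13.1 CPM, log2 fold change -0.48 ± 0.13, edgeR adjusted p = 0.0866) and the sorting receptor Sorl1 (-0.58 ± 0.20, edgeR adjusted p = 0.141). Of 22 genes of the receptor chaperone, clathrin and its adaptors 0 passed (median -0.12). The endocytic motor Myo6 was at -0.47 ± 0.16 (edgeR adjusted p = 0.146), while the clathrin adaptor subunit Ap2s1 was at 0.67 ± 0.28 (edgeR adjusted p = 0.192). The megalin chaperone Lrpap1 was at -0.17 ± 0.15.

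Of 24 early and recycling endosome genes 0 passed and 22 were negative (median -0.18). The lipid kinase Pik3c3 was at -0.27 ± 0.10 (edgeR adjusted p = 0.148) and the GTPase Rab14 at -0.22 ± 0.09 (edgeR adjusted p = 0.169), with all 6 LOY kidneys below all Control kidneys for Rab14, as in 0.461% of all genes. Ocrl, the phosphatase mutated in Lowe syndrome, was at -0.07 ± 0.14. Of 21 acidification genes 0 passed (median -0.06), with the proton pump subunit Atp6v1a at -0.43 ± 0.16 and Atp6v0e at 0.24 ± 0.09. Of 19 lysosomal genes 0 passed (median -0.07), with the channel Mcoln1 at -0.33 ± 0.11 and the regulator Tfeb at 0.42 ± 0.14.

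Of 14 genes that handle vitamins and other ligands, B2m rose and 0 fell (median -0.08). Chosen after their values were seen, the vitamin D receptor Vdr (255 ± 39.1 to 187 ± 27.8 CPM, -0.44 ± 0.13, edgeR adjusted p = 0.0950) and the folate receptor Folr1 (300.1 ± 38.4 to 211 ± 44.1 CPM, -0.51 ± 0.15, edgeR adjusted p = 0.105) had negative values short of the threshold. Of 10 nuclear factors 0 passed and 7 were negative (median -0.35). Maf was at -0.71 ± 0.21 (edgeR adjusted p = 0.104). Rxra, the partner receptor of the vitamin D receptor, was at -0.42 ± 0.13 (edgeR adjusted p = 0.125), also with all 6 LOY kidneys below all Control kidneys, as in 0.461% of all genes.

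**Figure D3:**
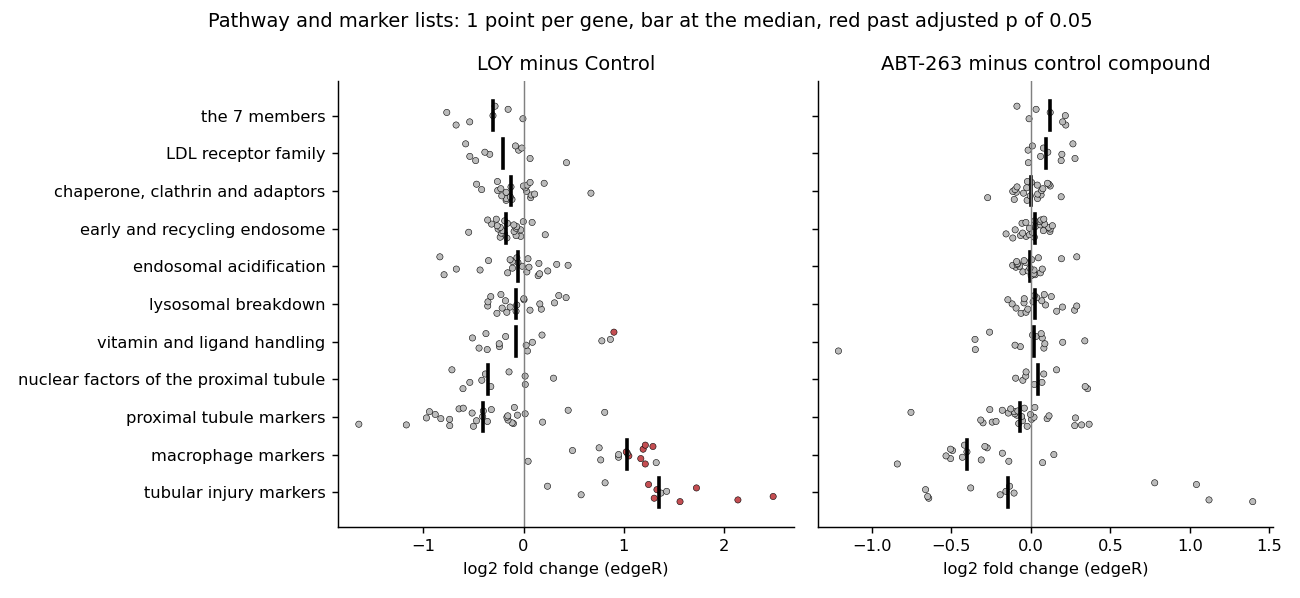
Log2 fold changes (edgeR, horizontal axis) of the 7 members and of the genes of the pathway and marker lists, for LOY minus Control and for ABT-263 minus control compound. Each point is a gene, bars mark medians and red marks an adjusted p under 0.05. In the LOY comparison the members have a median of -0.30 and the injury markers one of 1.35.

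In LOY animals the effect of ABT-263 was compared with that of the control compound. Cubn, Lrp2 and Dab2 had slightly higher means with ABT-263, at 1.15, 1.16 and 1.16 times the control-compound mean, and Amn, Fcgrt and Hnf4a stood at 0.992, 1.02 and 0.941. The log2 fold changes of 2 members were negative and those of 5 positive, where 50.6% of all genes were negative. By edgeR 0 of 7 members passed, as did 0 of 16956 genes (0%); 0 members and 1002 genes (5.91%) had an unadjusted p under 0.05. DESeq2 called 0 of 7 members and 44 genes (0.259%), and limma voom 0 of 7 and 11 genes (0.0649%). The ABT-263 animals were numbered 15 to 18 and the others 6 to 10, so compound and animal number cannot be told apart.

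Cubn stood at 399.9, 407, 433 and 447 CPM with the control compound and at 437, 454, 494 and 552 CPM with ABT-263. With ABT-263, 3 of 4 kidneys lay above every control-compound kidney, and animal 16 lay within their range. The log2 fold change was 0.20 ± 0.09 (95% interval -0.01 to 0.40; edgeR adjusted p = 0.827), and 0.13 without animal 17.

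Lrp2 stood at 1522, 1832, 2054 and 2462 CPM with the control compound and at 1845, 2206, 2312 and 2795 CPM with ABT-263. The groups overlapped broadly, and only animal 17 lay above every control-compound kidney. This was a log2 fold change of 0.22 ± 0.16 (95% interval -0.14 to 0.58; edgeR adjusted p = 0.858). It was 0.11 without animal 6 or animal 17 and 0.35 without animal 9.

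Dab2 stood at 399, 444, 448 and 464 CPM with the control compound and at 444, 485, 487 and 623 CPM (animal 16) with ABT-263, a log2 fold change of 0.22 ± 0.11 (edgeR adjusted p = 0.844) that was 0.11 without animal 16. Animal 16, the kidney with the highest injury markers, was thus the highest for Dab2 and the lowest of its group for Lrp2 and Cubn. Macrophage markers summed to 417 to 713 CPM with the control compound and 388 to 455 CPM with ABT-263, and their part in these values was not tested.

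Amn (-0.01 ± 0.10; 95% interval -0.24 to 0.22), Fcgrt (0.03 ± 0.08; -0.14 to 0.21), Clcn5 (0.12 ± 0.16; -0.23 to 0.47) and Hnf4a (-0.09 ± 0.11; -0.33 to 0.16) had intervals that included zero. Clcn5 stood at 92.6 (animal 6), 157, 159 and 159 CPM with the control compound and 142, 146, 163 and 166 CPM with ABT-263. Its positive sign rested on animal 6: without that kidney the log2 fold change was -0.04. Hnf4a ranged from 696 to 986 CPM with the control compound and from 762 to 829 CPM with ABT-263.

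**Figure D4:**
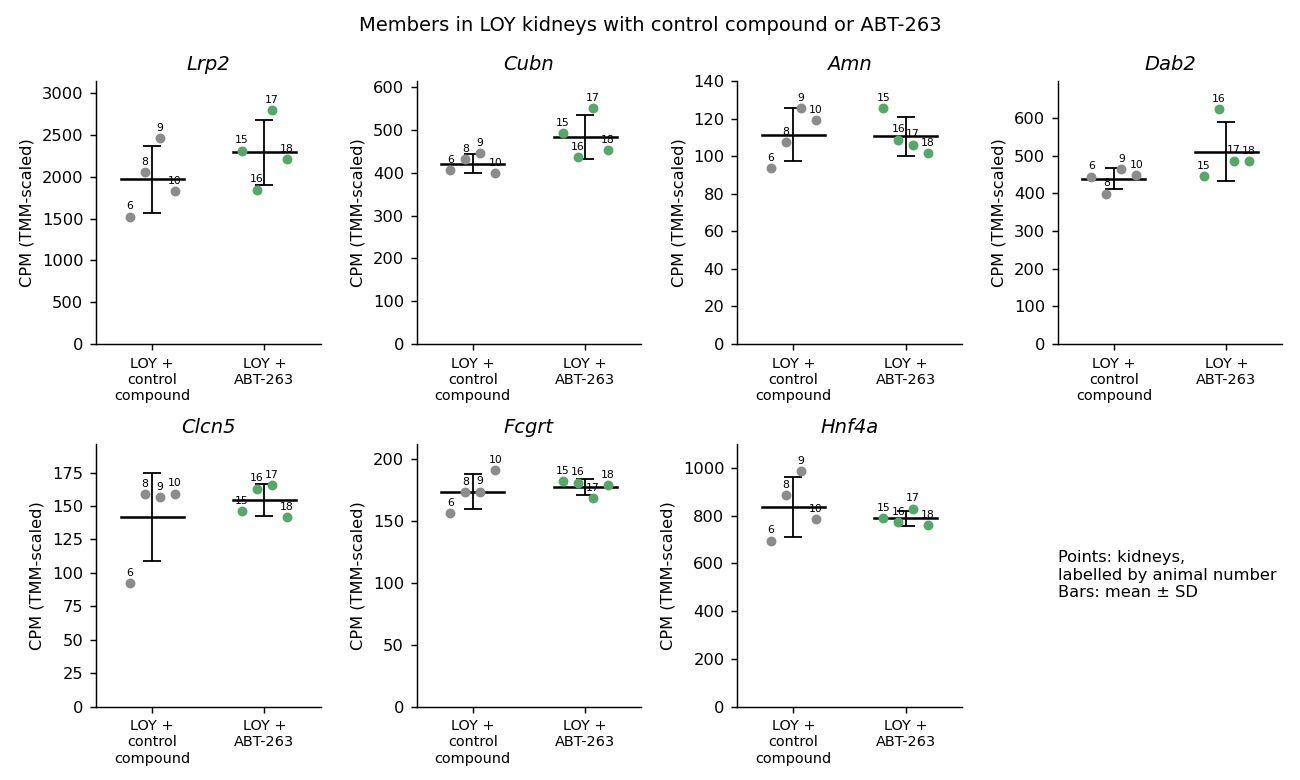
Level of each member in CPM (vertical axis, TMM-scaled, from 0) in 4 LOY kidneys with the control compound and 4 with ABT-263. Points are kidneys labelled by animal number, and bars give the mean ± SD. For Cubn, 3 of 4 ABT-263 kidneys lie above every control-compound kidney, with animal 16 at 437 CPM.

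The Lrp2 to Hnf4a ratio had a log2 mean of 1.22 ± 0.08 with the control compound and 1.52 ± 0.20 with ABT-263, a difference of 0.30. Of the 4 ABT-263 kidneys 3 lay above every control-compound kidney (exact permutation p = 0.0571, adjusted p = 0.229; the smallest p that 70 splits allow is 0.0286). The Amn to Cubn ratio differed by -0.20 (exact permutation adjusted p = 0.343), the Lrp2 to Cubn ratio by 0.03 and the Dab2 to Lrp2 ratio by -0.02 (exact permutation adjusted p = 0.971 for both). None of the 4 ratios passed.

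**Figure D5:**
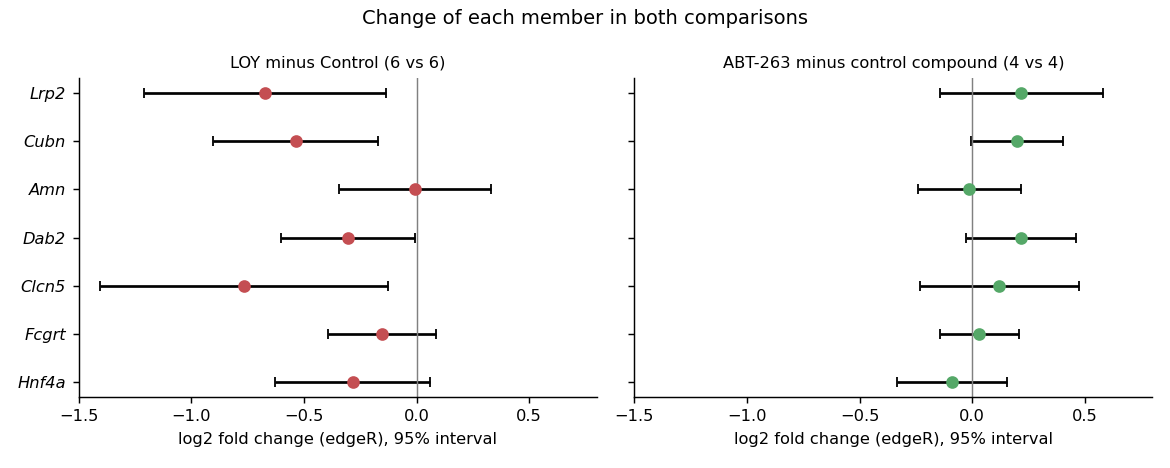
Log2 fold change of each member by edgeR (points) with its 95% interval (bars) in the LOY and ABT-263 comparisons, on the same horizontal scale. The intervals of Lrp2, Cubn, Dab2 and Clcn5 lie below 0 with LOY before adjustment over all genes, and all 7 intervals include 0 with ABT-263.

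In the rest of the route 0 genes passed with ABT-263 in any of the 7 lists (unadjusted p under 0.05 in 5 of 120 genes), and list medians lay between -0.01 and 0.09. B2m, the light chain of the Fcgrt receptor, was at -0.26 ± 0.10 (396 ± 31.4 to 331 ± 33.7 CPM, edgeR adjusted p = 0.766). For Vldlr all 4 ABT-263 kidneys (122 to 145 CPM) lay above all control-compound kidneys (107 to 119 CPM), as in 2.04% of all genes. In the LDL receptor family and the acidification list the smallest p belonged to Sorl1 (0.26 ± 0.09) and Vldlr (0.19 ± 0.08), the brush border sodium-proton exchanger Slc9a3 (0.29 ± 0.11) and the chloride transporter Clcn7 (0.19 ± 0.10), each with an edgeR adjusted p of at least 0.728. In the adaptor, endosome and lysosome lists it belonged to Ap2a1 (0.19) and Gulp1 (-0.27), to Rab11b (-0.16) and Appl2 (0.11), and to Ctsa (0.16) and Npc2 (-0.15), and the nuclear factor list also held Hnf4g (0.36, edgeR adjusted p = 0.854). Lrpap1 was at -0.02 ± 0.12 and Ocrl at 0.03 ± 0.10. Of the 28 proximal tubule markers 0 passed (median -0.07), with Slc13a3 at -0.32 ± 0.09 and Slc5a12 at 0.32 ± 0.11. In the macrophage, injury, endothelial, podocyte, thick ascending limb and distal lists 0 markers passed, with medians of -0.40, -0.15, 0.16, -0.24, -0.07 and 0.14.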

How the data were processed

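Total RNA of whole kidneys was sequenced on an Illumina NovaSeq X, per the labels' protocols, with 1 kidney per animal in each table. The authors deposited 2 tables of raw counts per gene, mm10 per the submitters' processing notes. No source used here names the aligner, counter, annotation or strand use. Counts without a gene name (0.223% to 0.401% in the LOY table) were left out. The test across genes was that of edgeR 4.0.16 under R 4.3.3 (with TMM factors, quasi-likelihood, counts of at least 10 by its filter, robust fit), which left 14978 and 16956 genes, with Benjamini-Hochberg adjustment at 0.05. DESeq2 1.42.0 and limma 3.58.1 were alternatives, and the edgeR step was tested on simulated data. Ratios used counts plus 0.5. Levels are CPM on TMM-scaled library sizes, except summed markers, which use library totals; intervals for single genes are 95%. No replicate pair agreed within counting noise. Within each table every title names a different animal. Numbers 8, 9, 10 and 18 name LOY animals in both tables, and the titles do not say whether these are the same animals. The members, lists and tests were chosen with earlier results of these data known. Named were all members, Lrpap1, Ocrl, B2m, up to 3 genes per list past the threshold or otherwise 2 with the smallest p, and 3 genes nearest to Lrp2 and to Cubn; others are said to be chosen afterwards. Some genes that this rule names are not reported here. The GC box was searched after the windows were read. Older symbols matched 4 list genes of the LOY data.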

Additional observations from a re-analysis of the deposited data

Results flagged for a closer look

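In 44 groups of values looked at, 3 had a kidney far from the others, and chance gives about 1 in 20. For Fcgrt, LOY animal 10 lay at a log2 CPM of 7.46, with the nearest LOY kidney at 7.92. For Clcn5, control-compound animal 6 lay at a log2 CPM of 6.54, with the nearest kidney of its group at 7.29. For the log2 ratio of Lrp2 to Hnf4a, LOY animal 8 lay at -0.16, with the nearest LOY kidney at 0.77.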

How the results depend on the processing

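The negative log2 fold changes of Lrp2, Cubn, Dab2, Clcn5, Fcgrt and Hnf4a in LOY kidneys kept their sign in all 23 alternatives. Amn, near 0, turned positive with upper-quartile factors (0.00391), limma voom (0.0261) and with some kidneys left out (range -0.0994 to 0.0819). Of LOY genes, 105 passed with library totals alone, 866 with DESeq2 (599 higher, 267 lower), 1062 with limma voom (689 higher, 373 lower), 0 with animal number above 10 as a term, 451 among animals above 10 alone, 29 without LOY animals 8 and 10, and 0 to 607 with 1 kidney left out. DESeq2 and limma voom each passed 1 member. Chosen after seeing the data, a further fit left out LOY animals 8 and 10 and Control animal 3, the kidneys lowest in Lrp2 of their groups. It passed 698 genes and 2 members, Lrp2 (-0.42, edgeR adjusted p = 0.0440) and Cubn (-0.41, edgeR adjusted p = 0.0286). Amn was then 0.0768 and the Amn to Cubn ratio 0.47 (exact adjusted p = 0.0159). The Dab2 to Lrp2 ratio was 0.18 (exact adjusted p = 0.0741) and the Lrp2 to Hnf4a ratio -0.28 (exact adjusted p = 0.0159). These kidneys are also the lowest of their groups for Cubn, and leaving them out narrows the spread within groups. The p-values of this fit and of its ratios are therefore no evidence of a difference. With 1 kidney left out the ratio differences ranged from 0.32 to 0.67 (Amn to Cubn), 0.31 to 0.55 (Dab2 to Lrp2) and -0.52 to -0.28 (Lrp2 to Hnf4a). Without LOY animals 8 and 10 the last 2 were 0.18 and -0.23, and among animals above 10 alone 0.25 and -0.24. The causes were not tested.

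With ABT-263, 44 genes passed with DESeq2, 11 with limma voom, 0 to 9 with 1 kidney left out, and 388 without control-compound animal 6 and ABT-263 animal 16, also chosen after seeing the data; 0 members passed in any alternative. Values near 0 changed sign: Amn with upper-quartile factors (0.00554), totals alone (0.00427) and 1 kidney left out (-0.0870 to 0.0508); Clcn5 with limma voom (-0.00906), without animals 6 and 16 (-0.0619) and 1 kidney left out (-0.0366 to 0.18); Fcgrt likewise (-0.00436, -0.0230 and -0.0157 to 0.0815). The Lrp2 to Cubn ratio was -0.0174 without animals 6 and 16 and -0.0689 to 0.12 with 1 kidney left out, and the Dab2 to Lrp2 ratio -0.22 to 0.10. No paired analysis was possible because the groups compared share no animal number.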
